A study of Mus musculus with 8 samples.

Results

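The genes of the major histocompatibility complex (MHC) and of antigen presentation were examined in the pancreatic islets of mice on a high fat diet (HF) and on regular rodent chow (NC). They were chosen by name. All probe sets annotated to 1 gene whose symbol starts with H2- were taken, together with those of B2m, Cd74, Ciita, Tap1, Tap2, Tapbp, Psmb8, Psmb9, Psmb10, Psme1, Erap1, Nlrc5, Ctss and Ifi30, which gave 69 probe sets of 37 genes among the 45101 probe sets of the array. Psme2 was also named, but its probe set is annotated to several genes. Male C57Bl/6J mice were weaned at 4 weeks of age to HF, with 45 %kcal of fat, or to NC, and stayed on the diet for 12 weeks according to the sample labels (the methods give a somewhat longer time). Islets were freed with collagenase, separated on a Ficoll gradient and picked by hand, and each of the 4 HF samples (replicates 21, 22, 23 and 24) and 4 NC samples (replicates 1, 2, 4 and 5) pooled the islets of 2 mice on 1 array. Both diets were tested in the same strain, which carries a deletion in Nnt and the b haplotype of the MHC, so that every group shares these alleles.

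MHC class I molecules consist of a heavy chain and β2-microglobulin (B2m) and show peptides cut by the proteasome in the cytosol, which TAP carries into the endoplasmic reticulum. They are found on nearly all nucleated cells, beta cells included. MHC class II molecules consist of an α and a β chain and are mainly made by macrophages, dendritic cells and B cells, which load them with peptides from endosomes after the invariant chain (Cd74) has been removed. Within islets the class II chains are known chiefly from resident macrophages and dendritic cells, and interferon-γ raises both classes, class II through the coactivator Ciita and class I through Nlrc5.

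Genes of both classes carry a Y box, the site of the factor NF-Y, close to their start, and class I promoters also carry an interferon response element and a κB site. The promoters of 3 class II genes (H2-Aa, H2-Eb1 and H2-Ob), of the 2 class I heavy chains with the brightest probe sets (H2-K1 and H2-D1) and of B2m are shown because the results set these genes beside each other. They are RefSeq promoters of build GRCm38.p6, from 250 bases before to 50 bases after the start, written 5′ to 3′ on the strand of the gene. Capitals mark matches on either strand to GATTGG (the Y box core), AANNGAAA (an interferon regulatory factor core, IRF) and GGGATTC (part of the κB site), and no match of one overlapped a match of another in them.
H2-Aa, chr17:34287774-34288073, minus strand: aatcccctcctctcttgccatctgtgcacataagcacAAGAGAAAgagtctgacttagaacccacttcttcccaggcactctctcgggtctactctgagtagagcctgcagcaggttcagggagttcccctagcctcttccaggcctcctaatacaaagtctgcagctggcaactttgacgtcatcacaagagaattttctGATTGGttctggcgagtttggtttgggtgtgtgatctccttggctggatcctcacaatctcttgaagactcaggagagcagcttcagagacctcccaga
H2-Eb1, chr17:34305617-34305916, plus strand: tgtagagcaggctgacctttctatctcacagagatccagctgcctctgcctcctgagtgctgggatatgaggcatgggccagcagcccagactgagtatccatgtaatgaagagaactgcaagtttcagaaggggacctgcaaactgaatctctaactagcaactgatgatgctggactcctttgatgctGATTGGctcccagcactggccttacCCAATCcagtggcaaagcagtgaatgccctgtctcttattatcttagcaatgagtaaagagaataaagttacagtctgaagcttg
H2-Ob, chr17:34238655-34238954, plus strand: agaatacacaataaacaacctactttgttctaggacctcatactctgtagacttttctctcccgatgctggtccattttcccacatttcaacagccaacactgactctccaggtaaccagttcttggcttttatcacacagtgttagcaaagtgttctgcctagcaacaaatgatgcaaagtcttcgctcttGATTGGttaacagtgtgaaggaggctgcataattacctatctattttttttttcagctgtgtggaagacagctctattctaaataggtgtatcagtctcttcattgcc
H2-K1, chr17:34000298-34000597, minus strand: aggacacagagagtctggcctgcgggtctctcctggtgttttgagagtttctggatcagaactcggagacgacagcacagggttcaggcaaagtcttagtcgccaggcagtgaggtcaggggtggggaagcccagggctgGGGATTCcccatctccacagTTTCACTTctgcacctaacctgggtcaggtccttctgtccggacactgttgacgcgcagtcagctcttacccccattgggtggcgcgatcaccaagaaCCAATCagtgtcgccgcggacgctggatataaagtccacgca
H2-D1, chr17:35262844-35263143, plus strand: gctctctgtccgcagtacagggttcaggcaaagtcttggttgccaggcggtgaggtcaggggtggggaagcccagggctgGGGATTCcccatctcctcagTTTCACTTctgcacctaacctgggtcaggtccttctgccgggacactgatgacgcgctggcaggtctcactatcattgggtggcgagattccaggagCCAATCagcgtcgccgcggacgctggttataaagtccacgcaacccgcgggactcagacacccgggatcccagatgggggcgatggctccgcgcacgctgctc
B2m, chr2:122147437-122147736, plus strand: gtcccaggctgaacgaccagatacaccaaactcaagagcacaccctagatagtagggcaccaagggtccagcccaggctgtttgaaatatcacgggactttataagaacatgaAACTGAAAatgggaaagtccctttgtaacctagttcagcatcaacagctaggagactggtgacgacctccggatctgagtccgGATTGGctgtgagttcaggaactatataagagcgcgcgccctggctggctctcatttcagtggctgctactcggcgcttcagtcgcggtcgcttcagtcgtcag

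Of the 37 member genes, 26 had a RefSeq promoter here. Where RefSeq lists more than 1 start, the first was counted. The Y box core was present in 6 of the 7 class II chain promoters and in 4 of the 8 class I heavy chain promoters, against 16.1% of 32851 promoters of the same length. In H2-Aa it began 49 bases before the start, in H2-Ob 58 bases and in H2-Eb1 60 bases, with another match 35 bases before the start. In B2m it began 54 bases before the start, close to the distances in the class II genes. The match in H2-D1 began 53 bases before the start, and that in H2-K1 at base 9 after the first start and 6 bases before the other start. Both heavy chain promoters also hold ATTGG after a C, upstream of the marked match, which the search for GATTGG could not count. The marked match of H2-K1 and H2-D1 therefore need not be their Y box. The IRF core was found in 7 of the 8 class I heavy chain promoters and 3 of the 7 class II chain promoters, against 23.9% of all promoters. H2-DMa had neither core at its first start, but at its other start a Y box core began 199 bases and an IRF core 25 bases before it, so that with either start allowed 7 of the 7 class II chain promoters held the Y box core and 4 of the 7 the IRF core. The κB letters were found in no class II chain promoter and in the heavy chain promoters of H2-K1, H2-D1 and H2-M9, against 3.08% of all promoters. They began 110 bases before the first start in H2-K1 and 170 bases before the start in H2-D1. In H2-M9 they lay after the start, at base 32 from the first start and base 13 from the other. These matches describe the letters alone, and no binding was measured.

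The values are GCRMA intensities on a linear scale, which the authors had adjusted for background and normalized across arrays, and they were compared on the log2 scale with limma. Present calls were not used here, and probe sets were retained by the third-highest of their 8 intensities, down to 8.82. Median intensity ranged from 13 to 13.8 over the 8 samples and the correlation of any pair of samples from 0.9858 to 0.9965. The number of arrays limits the precision, and the p-values measure the spread between these pools. A probe set was called where its adjusted p was under 0.05 and its change 1.5-fold or more. Samples are always given in the order HF 21, 22, 23 and 24, against NC 1, 2, 4 and 5.

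Of the 69 member probe sets 48, of 29 genes, were retained and 21 were not. In HF islets 13 of the 48 were called lower and 0 were called higher, against 3.06% of all retained probe sets called lower and 0.644% called higher. By adjusted p alone 17 were lower, against 4.13% of all. All 4 HF values lay under all 4 NC values in 23 of the 48, against 7.84% of all retained probe sets, and in 0 of the 48 over all NC values, against 6.81%. The median log2 fold change (HF over NC) of the 48 was -0.30 and 43 of them were below 0, whereas the median of all retained probe sets was 0.02, with 43.4% below 0. With the brightest retained probe set standing for each gene, 6 of 29 genes were called lower (Cd74, H2-Aa, H2-Ab1, H2-DMb2, H2-Eb1 and H2-Ob), and 0 were called higher, against 4.28% and 0.447% of 12299 genes. By adjusted p alone 8 genes were lower, B2m and Ctss in addition, against 5.86% of all genes, and Ctss was just under the threshold. In RNA of whole islets, fewer cells of a type and less RNA per cell cannot be told apart.

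**Figure D1:**
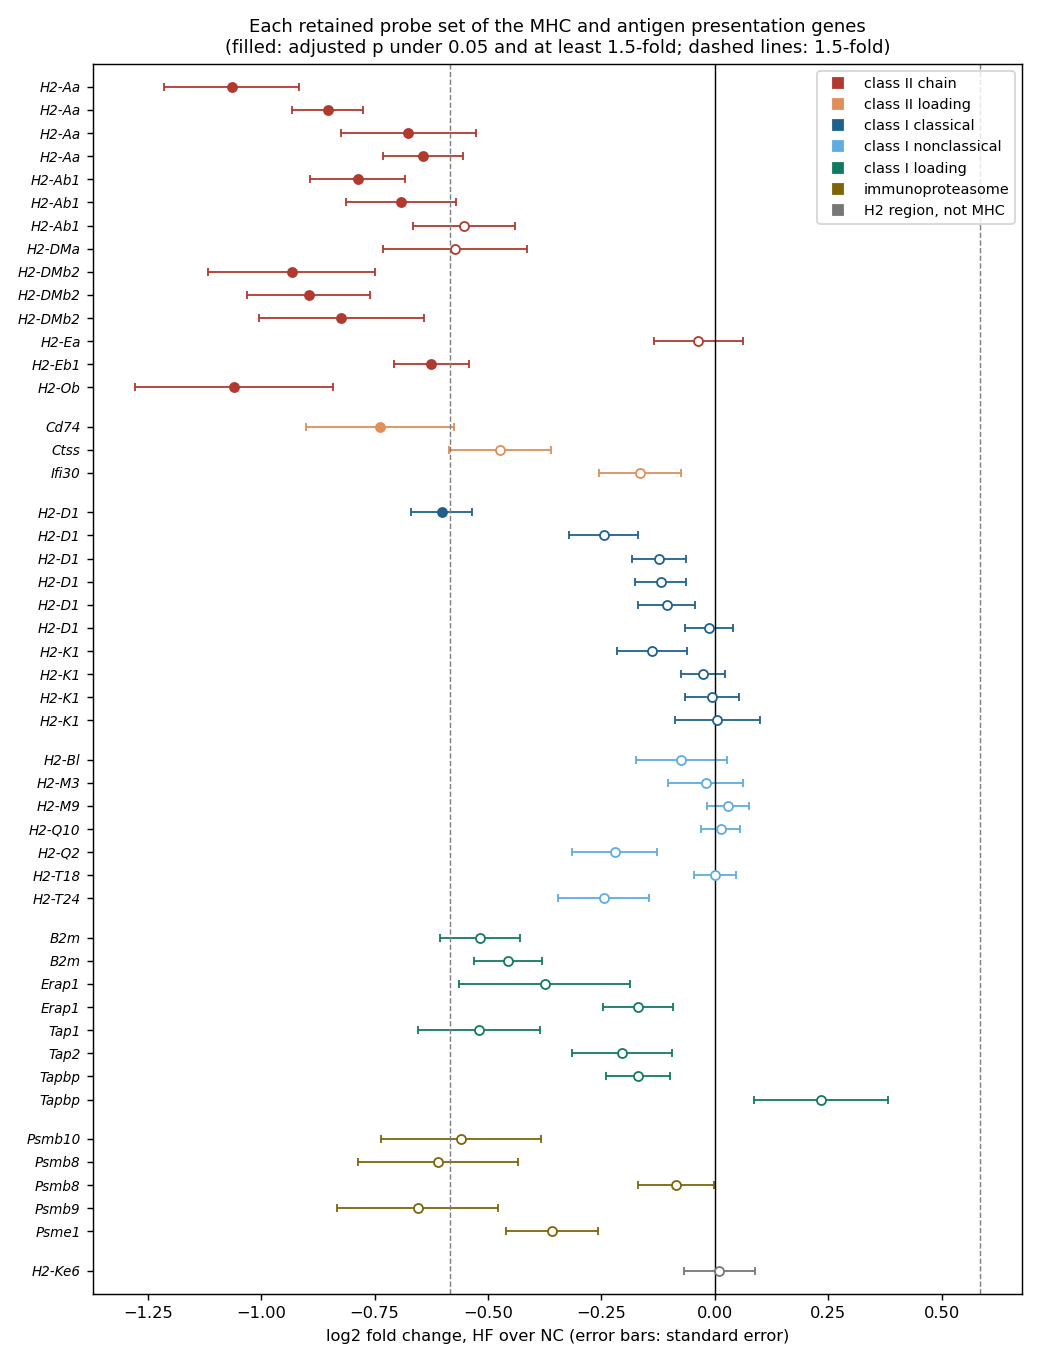
Log2 fold change of HF over NC (x axis) for each of the 48 retained probe sets (rows, by gene and class). Points are limma estimates with standard errors, filled where the probe set was called, and dashed lines mark 1.5-fold. Of the 13 filled points 11 are class II chains, 1 is Cd74 and 1 is a probe set of H2-D1.

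The class II chains held most of these calls. Of 14 retained probe sets of 7 class II chain genes 11 were called lower, 13 had no overlap between the diets, and the median log2 fold change was -0.74 (range -1.07 to -0.04). H2-Aa and H2-Ab1 encode the α and β chain of I-A, the only class II molecule that C57BL/6 cells display. H2-Aa (1435290_x_at) had intensities of 4365, 4295, 4326 and 4325 in HF islets, against 6671, 7652, 5719.7 and 7153 in NC islets (log2 fold change -0.64, standard error 0.09, adjusted p = 0.00583). The HF samples lay within a narrow band and NC 4, the lowest NC sample, was still well above it. H2-Ab1 (1450648_s_at) had intensities of 1038, 963, 1072 and 926 in HF islets, against 1589, 1916, 1284 and 1725 in NC islets (log2 fold change -0.69, standard error 0.12, adjusted p = 0.0156). NC 2 was again the highest and NC 4 the lowest of the NC samples, and the groups did not overlap. Without NC 2 the change of H2-Aa was just short of 1.5-fold (log2 fold change -0.58), and without HF 24 the adjusted p of H2-Ab1 was 0.0538 with limma.

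The other probe sets of I-A pointed the same way. The largest change of H2-Aa was on 1443783_x_at, with 148, 167, 132 and 179 in HF islets, against 309.9, 409, 262 and 338 in NC islets (log2 fold change -1.07, standard error 0.15, adjusted p = 0.00611). Its remaining probe sets 1438858_x_at and 1452431_s_at had log2 fold changes of -0.85 and -0.68 (adjusted p = 0.00146 and 0.0361 with limma), so that all 4 were called. The largest change of H2-Ab1 was on 1425477_x_at, with 227, 234, 248 and 239 in HF islets, against 395, 469.6, 336 and 449.5 in NC islets (log2 fold change -0.79, standard error 0.10, adjusted p = 0.00523). The third, 1451721_a_at, passed the adjusted p but not the fold limit (log2 fold change -0.55, standard error 0.11, adjusted p = 0.0278). Probe sets with names ending in _x_at or _s_at may read several genes of a family, and all 7 such class II probe sets were called, beside 4 of the 7 others.

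H2-Eb1 encodes the β chain of I-E, whose α chain gene H2-Ea is defective in the b haplotype. H2-Eb1 (1417025_at), read by a probe set without such a suffix, had 1671, 1631, 1569.6 and 1609 in HF islets, against 2578, 2739, 2123 and 2598 in NC islets (log2 fold change -0.63, standard error 0.08, adjusted p = 0.00522). The groups did not overlap, and as for H2-Aa the spread was smaller among HF than among NC samples. Without NC 2 its log2 fold change was -0.58, just short of the limit. The single retained probe set of H2-Ea (1422891_at) was dim, with 23.97, 26.6, 19.7 and 26.5 in HF islets, against 25.6, 24.2, 24.7 and 24.01 in NC islets, and its values overlapped (log2 fold change -0.04, 95% interval -0.26 to 0.19). H2-Eb2 was not retained, with intensities of 5.11 to 6.20 in HF and 6.06 to 6.10 in NC.

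H2-DM and H2-DO act inside endosomes, where DM exchanges the remnant of the invariant chain for peptide and DO restrains DM. H2-DMb2 (1419744_at), a β chain of DM, had 41.5, 32.5, 40.1 and 42.2 in HF islets, against 91.4, 70.6, 69.7 and 60.98 in NC islets (log2 fold change -0.90, standard error 0.14, adjusted p = 0.00873). Every HF sample lay under the lowest NC sample, and its other probe sets had log2 fold changes of -0.93 (1443686_at) and -0.82 (1443687_x_at), both called, although without HF 21, 22, 23 or 24 or NC 5 neither was (adjusted p = 0.0516 to 0.0923 with limma). On 1443686_at, where the change of this gene was largest, the values were 14.3, 12.1, 12.1 and 12.2 in HF islets, against 20.5, 32.3, 17.9 and 28.5 in NC islets. These HF values lay about the median intensity of the arrays (13 to 13.8), near background, so that the size of this change is uncertain. H2-DMa (1422527_at), the α chain, had 25.6, 23.2, 30.7 and 27.5 in HF islets, against 31.3, 52.7, 37.2 and 40 in NC islets and was not called (log2 fold change -0.57, standard error 0.16, adjusted p = 0.0788), although its groups did not overlap. NC 1 came closest to the HF samples there and NC 2 was the highest.

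H2-Ob (1440837_at), the β chain of DO, had 7.29, 6.62, 10.2 and 7.54 in HF islets, against 17.8, 22.6, 11.3 and 15.4 in NC islets (log2 fold change -1.06, standard error 0.22, adjusted p = 0.0287). This probe set lay near background, and 3 of its HF values were under the lowest retained level of 8.82, so that it was retained through the NC samples. With those values raised to that level its log2 fold change was -0.83, and the call was lost without HF 21, 22 or 24 or NC 1, 2 or 5 (adjusted p = 0.0585 to 0.0864 with limma). The α chain H2-Oa was not retained, with at most 3.93 in HF and 5.20 in NC. Among the 14 class II chain probe sets NC 2 was the highest NC sample in 12 and NC 4 the lowest in 10, HF 22 was the lowest HF sample in 7, and the coefficient of variation was larger among NC than among HF samples in 12.

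**Figure D2:**
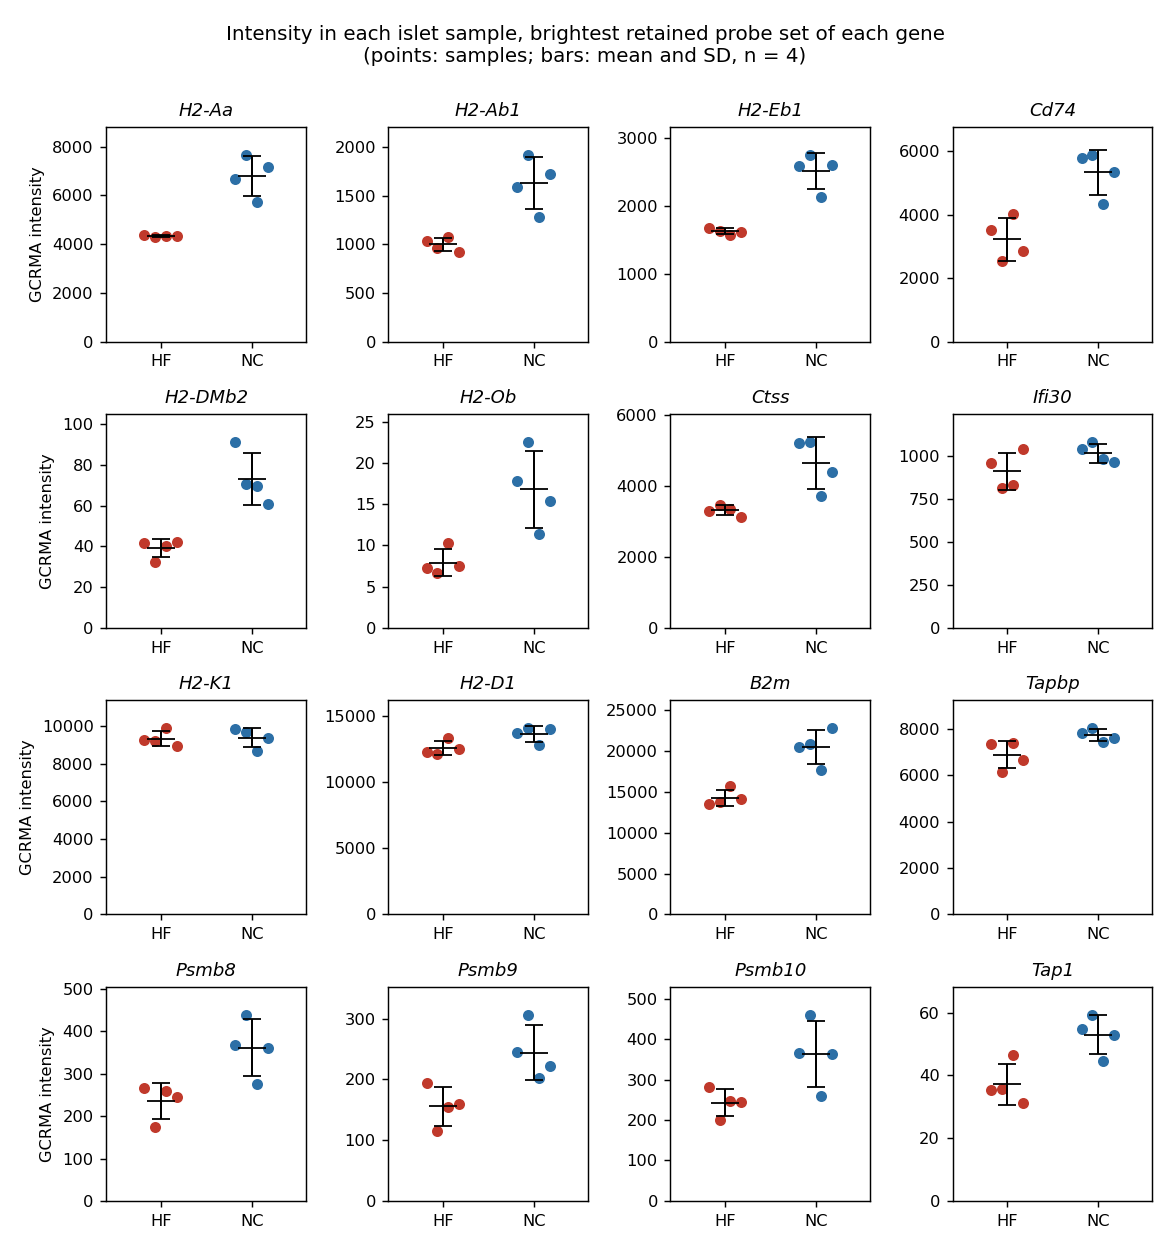
Intensity (y axis, linear from 0) in each HF sample (red, left) and NC sample (blue, right) on the brightest retained probe set of 16 member genes. Points are samples and bars the mean with SD (n = 4). H2-Aa, H2-Ab1, H2-Eb1, Cd74, H2-DMb2 and H2-Ob separate the diets and were called, whereas H2-K1 and H2-D1 overlap. B2m, Ctss and Tapbp separate the diets without reaching 1.5-fold. Psmb8 and Psmb9 separate them with more than 1.5-fold but did not pass the adjusted p.

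Of the genes that serve class II loading, Cd74 was called lower and the other 2 were not. Cd74 (1425519_a_at), the invariant chain that fills the groove until the endosome is reached, had 3509, 2530.2, 4039 and 2845 in HF islets, against 5805, 5878, 4327 and 5355 in NC islets (log2 fold change -0.74, standard error 0.16, adjusted p = 0.0368). HF 23 and NC 4 were close to each other and the remaining samples were well apart. Its call was lost without HF 21, 22 or 24 or NC 1, 2 or 5 (adjusted p = 0.0691 to 0.106 with limma) and without the filter (adjusted p = 0.0807). Ctss (1448591_at), cathepsin S, the protease that trims the invariant chain in macrophages and dendritic cells, had 3300.1, 3466, 3348 and 3126 in HF islets, against 5194, 5239.9, 3719.5 and 4391 in NC islets and passed the adjusted p but not the fold limit (log2 fold change -0.47, standard error 0.11, adjusted p = 0.0481). When 1 sample was left out, its adjusted p stayed under 0.05 only without NC 4 (0.0114) and was 0.0819 to 0.129 in the other 7 fits (limma). Ifi30 (1422476_at), the lysosomal thiol reductase that opens disulfide bonds of antigens, had 958, 817, 829.9 and 1039 in HF islets, against 1041, 1084, 981 and 964 in NC islets. Its groups overlapped (log2 fold change -0.17, 95% interval -0.37 to 0.04, adjusted p = 0.355 with limma). The transcriptional regulators were near background. None of the 3 probe sets of Ciita and the 1 of Nlrc5 was retained. The highest value of Ciita was 7.85 among HF samples and 11.5 among NC samples, where it came from NC 2 alone, and the highest of Nlrc5 was 4.90 in HF and 5.91 in NC.

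The class I heavy chains had 1 call. Of 17 retained probe sets of 9 heavy chain genes 1 was called lower and 0 higher, and the median log2 fold change was -0.07. H2-K1 (1425336_x_at), one of the 2 classical heavy chains of the b haplotype, had 9257, 9217, 9874 and 8951 in HF islets, against 9818, 9652, 8669 and 9341 in NC islets (log2 fold change -0.01, standard error 0.06, 95% interval -0.14 to 0.13, adjusted p = 0.972 with limma). The groups overlapped and HF 23 was the highest of all 8 samples. Its other 3 retained probe sets had log2 fold changes of -0.14, -0.03 and 0.01, none of them called.

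H2-D1 (1451784_x_at), the other classical heavy chain, had 12308, 12129, 13337 and 12510.3 in HF islets, against 13718, 14086, 12802 and 14018 in NC islets (log2 fold change -0.12, 95% interval -0.25 to 0.01, adjusted p = 0.279 with limma). HF 23 alone reached into the NC range. The only called heavy chain probe set was 1426324_at of the same gene, with 249, 234, 249 and 244 in HF islets, against 355, 377, 341 and 411 in NC islets (log2 fold change -0.60, standard error 0.07, adjusted p = 0.00289), and here the groups were far apart. Without HF 22 or NC 5 it was short of 1.5-fold (log2 fold change -0.58 and -0.55). Its 6 retained probe sets thus differed in the size of the change, since the other 5 had log2 fold changes between -0.25 and -0.01 and were not called. Of these 5, 1451683_x_at (log2 fold change -0.25) had no overlap between the diets. Near background lay 1450170_x_at and 1427651_x_at, which could show little change. All 10 heavy chain probe sets ending in _x_at or _s_at were uncalled, beside 6 of the 7 others. Those 6 were all of nonclassical genes, and 1426324_at was the only retained classical probe set without such a suffix. Such probe sets may read several class I genes at once, so that the values of H2-K1 and H2-D1 on them need not be those of 1 gene. The nonclassical heavy chains had 7 retained probe sets of 7 genes, 0 called, with log2 fold changes between -0.25 (H2-T24) and 0.03 (H2-M9). Only H2-Q2 and H2-M3 were well above background among them. H2-M3, which presents formylated peptides, had a log2 fold change of -0.02 (95% interval -0.21 to 0.17). H2-Ke6, which carries the H2- prefix by position but encodes a steroid dehydrogenase, had a log2 fold change of 0.01.

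The classes were also set beside each other within each array, by the log2 ratio of a class II to a class I probe set. These ratios were chosen after the values had been seen and are given as a description, with no test. The ratio of H2-Aa to H2-K1 ranged from -1.19 to -1.05 in HF and from -0.60 to -0.34 in NC samples, a difference of -0.64. For H2-Ab1 and H2-Eb1 over H2-K1 the differences were -0.69 and -0.62. Over H2-D1 on its brightest probe set they were -0.52 for H2-Aa, -0.57 for H2-Ab1 and -0.51 for H2-Eb1. Over H2-D1 on 1426324_at, which had itself fallen by 0.60 on the log2 scale, they were -0.04 for H2-Aa, -0.09 for H2-Ab1 and -0.02 for H2-Eb1, and the HF and NC samples overlapped. The contrast between the classes thus depended on which class I probe set was taken.

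The light chain was lower by adjusted p alone. B2m (1449289_a_at), the light chain of every class I molecule, had 13479.6, 13726, 15736 and 14133 in HF islets, against 20527, 20820.3, 17727 and 22802 in NC islets (log2 fold change -0.52, standard error 0.09, adjusted p = 0.0142), a fold change short of the limit. HF 23 and NC 4 came nearest to each other, and the groups did not overlap. The other probe set of B2m, 1452428_a_at, gave nearly the same change (log2 fold change -0.46, standard error 0.07, adjusted p = 0.0118). On both, the adjusted p passed while no H2-K1 probe set passed it. Of the H2-D1 probe sets 1426324_at alone passed it (log2 fold change -0.60, adjusted p = 0.00289 with limma).

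Of the other genes of class I loading none was called. Tap1 and Tap2 encode the subunits of the peptide transporter. Tap1 (1416016_at) had 35.2, 35.5, 46.4 and 31.4 in HF islets, against 54.96, 59.4, 44.6 and 52.95 in NC islets (log2 fold change -0.52, standard error 0.13, adjusted p = 0.0635), with HF 23 above NC 4 as the only overlap. Tap2 (1453913_a_at) had 201, 170.0, 195 and 173 in HF islets, against 196, 263, 195 and 202 in NC islets (log2 fold change -0.20, standard error 0.11, adjusted p = 0.355), where NC 2 stood above all others. Tapbp (tapasin), which bridges TAP and the heavy chain, had log2 fold changes of -0.17 on its brighter probe set, 1421812_at (7324, 6154, 7390.0 and 6655 in HF islets, against 7831, 8025, 7422 and 7607 in NC islets), and 0.23 on 1450378_at, so that its probe sets disagreed in sign and neither was called. Erap1 (1416942_at), the aminopeptidase that trims peptides in the endoplasmic reticulum, had 805, 683, 709.8 and 705 in HF islets, against 882, 852, 777 and 752 in NC islets (log2 fold change -0.17, standard error 0.08, adjusted p = 0.266), and its values overlapped. Over the 8 retained probe sets of class I loading the median was -0.29.

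Psmb8, Psmb9 and Psmb10 encode the catalytic subunits that replace the constitutive ones in the immunoproteasome, and Psme1 a subunit of the PA28 activator. Of their 5 retained probe sets 0 were called, 3 had no overlap, and the median log2 fold change was -0.56. Psmb8 (1422962_a_at) had 266, 174, 260.0 and 245 in HF islets, against 369, 439.7, 276 and 360.1 in NC islets (log2 fold change -0.61, standard error 0.18, adjusted p = 0.0900). Psmb9 (1450696_at) had 194, 116, 154 and 159 in HF islets, against 245, 307, 203 and 222 in NC islets (log2 fold change -0.65, standard error 0.18, adjusted p = 0.0739). In both, HF 22 was the lowest of all samples and NC 2 the highest, and the highest HF sample, HF 21, lay just under NC 4. Psmb10 (1448632_at) had 281, 199, 247 and 245 in HF islets, against 366, 461, 260.3 and 364 in NC islets (log2 fold change -0.56, standard error 0.18, adjusted p = 0.114), with HF 21 above NC 4. Psme1 (1417056_at) had 1305, 1008, 1310.2 and 1132 in HF islets, against 1659, 1552, 1375 and 1493 in NC islets (log2 fold change -0.36, standard error 0.10, adjusted p = 0.0819). Its groups did not overlap, but the change was the smallest of the 4 genes. The constitutive proteasome served as a comparison: of 15 genes, among them Psmb5, Psmb6 and Psmb7, whose places these subunits take, 0 were called and the median was -0.04. Of all genes 4.28% were called lower, so that 0 of 15 cannot be set apart from that share. With samples scaled to equal beta cell markers, B2m, H2-DMa, Psmb8, Psmb9 and Tap1 were called lower as well (log2 fold changes -0.73 to -0.60). That scaling also moved the median of all retained probe sets to -0.06.

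**Figure D3:**
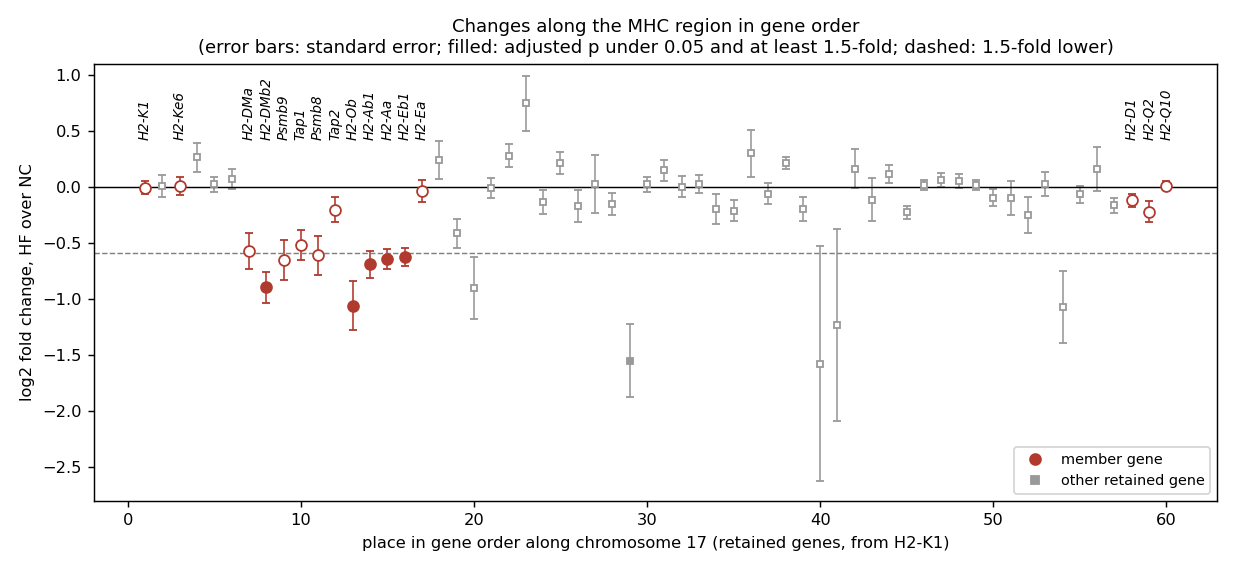
Log2 fold change of HF over NC with standard error (y axis) for retained genes in their order along chromosome 17 from H2-K1 to H2-Q10 (x axis, rank). Circles are member genes, squares other genes, and filled marks were called. From H2-DMa to H2-Eb1 all 10 retained members lie below 0 and 5 of them are called, whereas H2-K1, H2-Ea and H2-D1 lie near 0.

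Most of the member genes lie together on chromosome 17. From H2-K1 to H2-Ea the RefSeq order holds 13 retained members, of which 5 were called lower, and 4 other retained genes (Ring1, Slc39a7, Rxrb and Brd2), of which 0 were called and whose median log2 fold change was 0.05. These 4 genes lie before H2-DMa, and between H2-DMa and H2-Ea the retained genes were all members. Psmb9, Tap1, Psmb8 and Tap2 lie side by side between H2-DMb2 and H2-Ob, amid the class II genes, and had log2 fold changes from -0.65 (Psmb9) to -0.20 (Tap2), none of them called. From H2-Ea to H2-D1 lie 40 other retained genes, of which 1 was called lower (Tnxb), with a median of -0.04. Beyond H2-D1, up to H2-M3, 0 of 6 members and 2 of 27 other genes were called lower. Of all 12299 genes 4.28% were called lower, so that 0 calls among 4 neighbours cannot set the members apart from them.

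The genes around the pathway were taken from lists. Of all 12299 genes 4.28% were called lower, and in lists this short 0 or 1 call cannot be set apart from that share. Of 14 retained genes of interferon-γ signalling and of class II transcription 1 was called lower, Irf8, a factor of the macrophage and dendritic lineages (36.6 ± 7.59 in HF and 75.5 ± 16.5 in NC, SD, n = 4 each, log2 fold change -1.04, adjusted p = 0.0268 with limma). The receptor and signalling genes Ifngr1, Ifngr2, Jak1 and Jak2, the factors Irf1 and Irf2, and the RFX and NF-Y subunits that bind class II promoters were not called (median of the 14 genes -0.12). Irf1 had a log2 fold change of -0.30 (adjusted p = 0.26 with limma). Of 7 other endosomal genes 1 was called, Ctsh (cathepsin H), with 216 ± 20.6 in HF and 381 ± 53.1 in NC (log2 fold change -0.81, adjusted p = 0.00589 with limma). The broadly expressed cathepsins Ctsb, Ctsd and Ctsl had log2 fold changes of -0.06, 0.14 and -0.02. Of 6 other genes of class I folding and loading, such as Calr, Canx and Pdia3, 0 were called, with a median of 0.09. Of 5 further class I-like genes 1 was called, Procr, the endothelial protein C receptor (25.2 ± 3.92 in HF and 83.5 ± 11.9 in NC, log2 fold change -1.73, adjusted p = 9.82e-04 with limma). Of 4 retained costimulation genes (Cd80, Cd40, Cd274 and Icam1) 0 were called. Icam1 had 45.2 ± 11.7 in HF and 92.7 ± 38.1 in NC (log2 fold change -0.99, adjusted p = 0.0949 with limma). Cd80 (means 25.8 in HF and 24.9 in NC) and Cd40 (28.6 and 28.4) were dim and could show little change.

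Markers of leukocytes were measured beside these genes, against the same 4.28% of all genes called lower. Of 5 retained general leukocyte markers 5 were called lower, with a median log2 fold change of -1.50 and a summed intensity of 803 to 949 in HF against 1967 to 2405 in NC samples. Ptprc (CD45), the pan-leukocyte antigen, averaged 222 ± 41.0 in HF and 621 ± 53.1 in NC (log2 fold change -1.50, adjusted p = 0.00106 with limma). Of 12 retained macrophage and dendritic markers 5 were called lower and 7 were not called (median -0.66, sum 3150 to 4081 in HF and 5050 to 6035 in NC), among them Csf1r, the receptor for macrophage colony-stimulating factor (459 ± 36.3 in HF and 784 ± 47.2 in NC, log2 fold change -0.77). Among the called ones Cd83 and Cd14 fell most (log2 fold changes -2.17 and -2.06). The 7 uncalled markers were C1qc (-0.74), Adgre1 (-0.58), C1qb (-0.51), Itgax (-0.36), Cd68 (-0.26), C1qa (-0.24) and Cx3cr1 (0.01). C1qb passed the adjusted p (0.0294 with limma) but not the fold limit. Cx3cr1 was dim, with means of 19.8 in HF and 19.7 in NC, and could show little change. Of 5 retained B cell markers 3 were called lower (median -1.87, sum 261 to 850 in HF and 1458 to 2641 in NC). Of 6 T cell markers on the array 0 were retained, with no value above 8.38. Of the markers that were not retained, Rac2 was at most 14.5 and Itgam and Flt3 at most 5.97.

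Markers of islet and stromal cells were also set beside them, again against 4.28% of all genes called lower. Of 8 beta cell markers 0 were called (median 0.10, sum 263796 to 276569 in HF and 249351 to 255257 in NC), and of 4 acinar and 4 duct markers 0 were called. The duct marker Krt19, near background in HF, had 6.24 ± 1.56 in HF and 24.3 ± 14.5 in NC (log2 fold change -1.77, adjusted p = 0.0534 with limma). The remaining duct markers were near 0. Of 7 endothelial markers 2 were called lower (median -0.54, sum 10892 to 12347 in HF and 14196 to 16255 in NC), and of 6 fibroblast markers 6 (median -2.50, sum 547 to 1329 in HF and 4546 to 7713 in NC). The part of these cells in the changes of the member genes was not tested. Relative to its mean over all samples, the class II chain mean was highest in NC 2 (0.60) and lowest in HF 22 (-0.45). The leukocyte marker mean was highest in NC 2 (0.86) and lowest in HF 22 (-0.85), whereas the macrophage and dendritic marker mean was highest in NC 2 (0.54) and lowest in HF 23 (-0.49), with HF 22 the highest of the HF samples (-0.35). NC 4 was the lowest NC sample for the class II chains (0.12), the leukocyte markers (0.56) and the macrophage and dendritic markers (0.32), and also for the immunoproteasome (-0.03), class I loading (0.0040), classical class I (-0.02) and the endothelial markers (0.07), but not for the beta cell markers, where NC 5 was (-0.07). The classical class I mean ranged from -0.11 to -0.022 in HF and from -0.0158 to 0.16 in NC samples, so that the diets were apart by little.

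**Figure D4:**
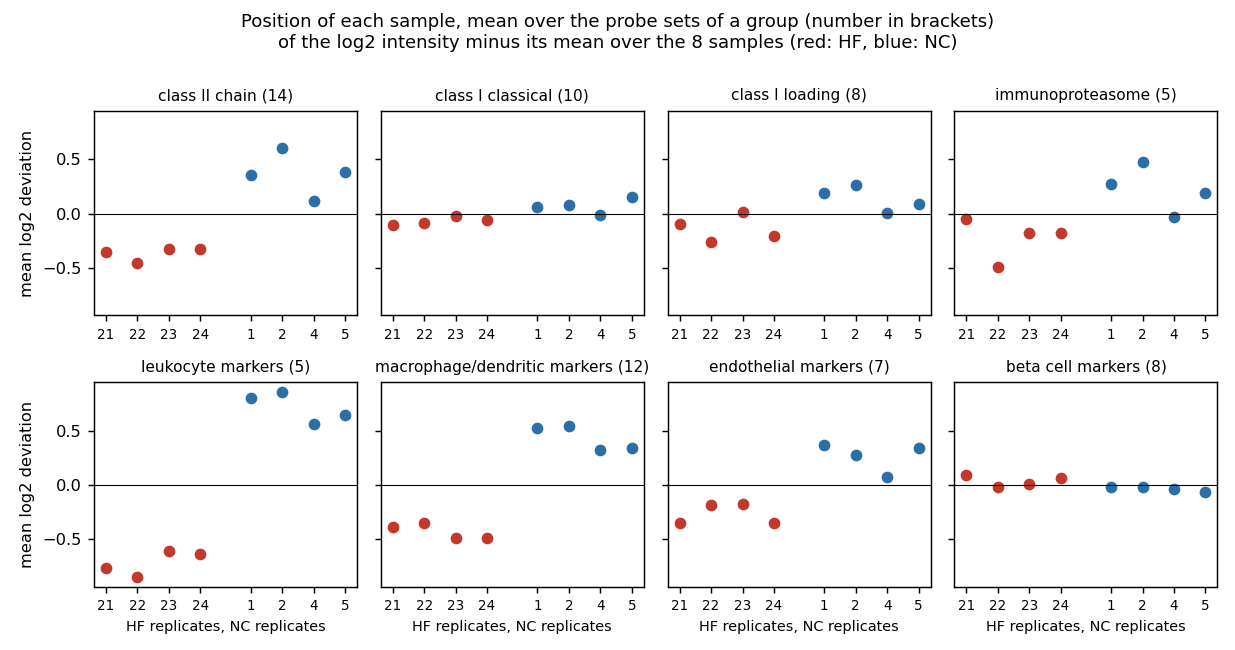
Mean log2 intensity of each sample relative to the mean of all 8 samples (y axis, log2 units) over the retained probe sets of a class or over the markers of a cell type, with HF replicates (red, left) and NC replicates (blue, right) on the x axis. The class II chains, the leukocyte markers and the macrophage and dendritic markers separate the diets widely, and the endothelial markers less so. The classical class I and beta cell panels stay within 0.16 of 0, and there too the diets do not overlap, with a narrow gap. NC 4 is the lowest NC sample in every panel but that of the beta cell markers.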

How the data were processed

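RNA of hand-picked islets, 4 HF and 4 NC pools, had been hybridised to mouse expression arrays. The deposited values are intensity on a linear scale, summarised by the authors with GCRMA (background adjustment and normalization between arrays) in ArrayAssist Lite 3.4. The number of arrays limits the precision. Present flags were not used, and 25617 probe sets were retained by their third-highest intensity, without regard to diet. Log2 values were compared with limma 3.58.1 in R 4.3.3 (lmFit, eBayes), with Benjamini-Hochberg adjustment over all retained probe sets. A fold change is the difference between the mean log2 values of the diets. Of all probe sets 34958 had 1 gene, 932 several and 9211 none. A total of 16 with several genes that include an H2- gene or Psme2 were left out (10 retained, of which 4 were lower and 0 higher).

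Members, gene lists, tests and alternatives were chosen with earlier results of these data known. Values per sample are given for called probe sets (the brightest and the most changed of a gene) and for the brightest retained probe set of each class II gene, H2-K1, H2-D1, B2m, Cd74, Tap1, Tap2, Tapbp, Psmb8, Psmb9, Psmb10, Psme1, Ctss, Ifi30 and Erap1, and other members by counts and range. The fit was tested on simulated data. The study tested its arrays with Significance Analysis of Microarrays (SAM), which was not run here. The alternatives were other filters, scalings, variance models, thresholds, a pseudocount, an unmoderated equal-variance test of each probe set, leaving out suffixed probe sets, averaging the probe sets of a gene and leaving out samples in turn. Raising values under 8.82 to that level and the ratios of class II to class I were added after the values had been seen.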

Additional observations from a re-analysis of the deposited data

Results flagged for a closer look

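In 72 groups of 4 samples, 3 had a sample whose gap to its nearest neighbour was large against the whole range of the group, and chance gives about 1 in 20. For H2-DMb2 (1443686_at) the sample HF 21 had an intensity of 14.3 and the nearest HF sample 12.2. For Tap2 (1453913_a_at) the sample NC 2 had 263 and the nearest NC sample 202. For H2-Bl (1450531_at), a nonclassical heavy chain gene, the sample NC 2 had 18.6 and the nearest NC sample 17.4.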

How the results depend on the processing

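The count of 0 probe sets and 0 genes called higher held under every alternative run. The 13 probe sets called lower became 8 without a filter, 7 with the unmoderated test, 2 at a fold of at least 2 and 5 without probe sets ending in _x_at, _s_at or _a_at, and 7 to 15 when 1 sample was left out (8 without HF 21, 7 without HF 22, HF 24 or NC 2, and 8 without NC 5). The 6 genes called lower became 11 when samples were scaled to equal beta cell markers, 3 with the unmoderated test and 1 at a fold of at least 2, and 2 to 7 when 1 sample was left out (2 without NC 2 and 3 without HF 24). Scaling to beta cell markers moved the median of all retained probe sets from 0.02 to -0.06, and B2m, H2-DMa, Psmb8, Psmb9 and Tap1 were called then. The 13 probe sets called lower became 19 with that scaling. The share of all genes called lower with it is not given here, so these rises are not a result about the members. The median log2 fold change of the class II chains stayed between -0.84 and -0.66 when 1 sample was left out. That of classical class I was -0.19 with beta cell scaling and -0.60 without the suffixed probe sets, which leaves 1426324_at of H2-D1 alone. That of nonclassical class I was -0.12 with the stricter filter, -0.10 with beta cell scaling and -0.074 without suffixed probe sets, and that of class I loading was -0.17 without a filter and without suffixed probe sets.

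Among single probe sets, H2-DMb2 (1419744_at), H2-Ab1 (1425477_x_at) and H2-Aa (1438858_x_at and 1443783_x_at) were called under each of the 18 alternatives run for single probe sets, among which the limit of 2-fold was not. H2-Aa (1435290_x_at) and H2-Eb1 lost the call only without NC 2 (log2 fold change -0.58 each), and H2-Ab1 (1450648_s_at) without HF 24 (adjusted p = 0.0538 with limma) and with the unmoderated test. Cd74 lost it without a filter, with the unmoderated test and in 6 of the 8 fits without 1 sample, and kept it without HF 23 or NC 4 (adjusted p = 0.0231 to 0.106 with limma over the 8 fits). H2-Ob lost it in 9 of 17 alternatives, H2-Aa (1452431_s_at) in 8 of 18, H2-DMb2 in 8 (1443686_at) and 10 (1443687_x_at) of 17, and H2-D1 (1426324_at) in 3 of 18. The samples concerned were HF 21, 22 and 24 and NC 1, 2 and 5 for H2-Ob and H2-Aa (1452431_s_at), the 4 HF samples and NC 5 for both probe sets of H2-DMb2, with NC 1 and NC 2 in addition for 1443687_x_at, and HF 22 and NC 5 for H2-D1. Without NC 4 Psmb10 was called (adjusted p = 0.0337 with limma), and without HF 23 Tap1 (adjusted p = 0.0205 with limma). Values near 0 changed sign: H2-K1 had 0.0065 with equal medians and -0.0432 to 0.0167 when 1 sample was left out, and H2-Ea 0.0021 after quantile normalization and -0.0851 to 0.0590. Ctss passed the adjusted p in the fit reported, but not without a filter (0.0918), with sample weights (0.0551) or with the unmoderated test (0.108). The cause of these changes was not tested. No paired analysis was possible because HF and NC samples share no replicate number. Raw images and present calls were not used here, so the limits of detection of dim members such as H2-Ob, Ciita and Nlrc5 are unknown.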
